A study of Mus musculus with 13 samples.

Results

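The zinc finger proteins examined here are the genes whose symbol on the array starts with Zfp and a digit. They were chosen by that symbol alone, which 158 of the 17081 symbols on the array and 224 of its 24613 probes with a signal carry. Of these symbols 110 have 1 probe and 48 have several, with at most 4. RNA came from primary cortical neurons of Swiss Albino mice, prepared from fetal cortices at gestation day 15 to 16 and kept to day 5 of culture. All 13 samples share this background, with no genotype or transgene given. 4 samples received the vehicle, and 3 samples each received 10 nM rotenone, an inhibitor of mitochondrial complex I, for 8 h, 15 h or 24 h. The labels give no harvest time for the vehicle samples, so that they serve as the control of every time point. Nothing says that the replicates are separate cultures, and the p-values may then measure technical spread alone.

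The largest class of zinc finger proteins carries arrays of C2H2 fingers, each a short loop held by a zinc ion that reads a few bases of DNA. Many of these proteins also carry a KRAB domain, which recruits the corepressor Trim28 and enzymes that build silent chromatin. The symbol Zfp was also given to proteins with other zinc folds, such as the CCCH fingers of Zfp36, which bind AU-rich stretches of mRNA and bring in the CCR4-NOT deadenylase. The mouse name of 38 of the 158 symbols has since changed in RefSeq, for instance Zfp238 to Zbtb18, Zfp312 to Fezf2 and Zfp313 to Rnf114. The name is therefore not the same as the class of DNA-binding transcription factors. By a list of roles written with the values known, 26 of the 142 probes tested belong to genes with a known role outside DNA binding.

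Of the 224 probes 142, for 113 symbols, were detected on at least 3 arrays and were tested. That is 63.4% of the Zfp probes against 58.3% of all probes. Of the other 82 probes 71 were detected on no array and 11 on 1 or 2 arrays, and 45 symbols had no probe tested. The probe of Zfp42, a pluripotency marker known as Rex1, and that of Zfp462 were detected on none of the 13 arrays. In the controls 123 of the 224 probes were detected on all 4 arrays. The corresponding counts were 123 at 8 h, 117 at 15 h and 118 at 24 h. The tested probes include those that passed in 1 group alone.

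Before scaling, the mean probe signal ran from 325 to 405 in the controls and from 222 to 259 at 24 h. The control cultures carried neuronal RNA, although Gad2, Nefl and Snap25 were detected on no control array. The summed normalized signal of the 23 neuron marker probes tested was 32251 to 37767 in the controls, 35585 to 37613 at 8 h, 10530 to 14593 at 15 h and 12149 to 12350 at 24 h. That of the 11 astrocyte and radial glia probes was 17538 to 20560 in the controls and 38380 to 39081 at 24 h, where 7 were called higher and 2 lower (Sox9 and Aqp4), with S100b and Slc1a2 undetected in the controls. Microglia markers (8 probes) went from 1190 to 1353 in the controls to 3716 to 3925 at 24 h, with Csf1r, Cx3cr1, Itgam and Ptprc undetected in the controls. Fibroblast and vessel markers (11 probes) went from 1833 to 2218 to between 11954 and 13377 at 24 h, where the probes of Acta2 and Fn1 were called higher and the 3 of Dcn lower, with Col1a1, Col1a2, Col3a1 and Lum undetected in the controls. Oligodendrocyte lineage markers (9 probes) went from 11613 to 12688 to between 4459 and 4916, with Mag and Mog undetected in the controls. The part of these shifts in the Zfp values below was not tested, and fewer cells of a type cannot be told apart from less RNA per cell.

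At 15 h 45.1% of the Zfp probes were called, beside 47.9% of all probes tested, and at 24 h 47.2% beside 52.9%. More fell than rose at both times, by the wider margin at 24 h. No Zfp probe passed the test at 8 h. At 15 h 28 of the 142 probes rose and 36 fell, and at 24 h 15 rose and 52 fell. Each call is from limma, which fits all 4 groups together, at an adjusted p under 0.05 (Benjamini-Hochberg over all 14347 probes tested). The median log2 change of the Zfp probes was -0.01 at 8 h, -0.03 at 15 h and -0.12 at 24 h, beside 0.00, 0.02 and 0.00 over all probes tested.

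These counts are read against all probes tested. At 8 h the background was 0.286% called, and 8 Zfp probes had an unadjusted p under 0.05, as did 1382 of all probes. Without replicate 2 of the 8 h group 3 Zfp probes were called, those of Zfp36, Zfp39 and Zfp521 described below. Calls over all 14347 probes then went from 41 to 167. The Zfp shares were 0.704% higher and 1.41% lower, beside 0.599% and 0.565% of all probes. At 15 h 45.1% of the Zfp probes were called, near the background of 47.9%. The 19.7% called higher stood beside 24.2% of all probes, and the 25.4% called lower beside 23.7%. At 24 h 47.2% were called against 52.9% of all probes. The 10.6% called higher at 24 h stood beside a background of 25.9%, and the 36.6% called lower beside 27.0%. The difference between the Zfp probes and the rest was not tested. By symbol, 14 genes had a probe called higher at 24 h and 47 had a probe called lower. Set against 8 h, 26 probes rose and 35 fell at 15 h, or 43.0% against a background of 48.5%. That split became 10 and 58 with median scaling, 10 and 59 with the authors' values and 5 and 62 with no scaling. Lower were then 40.8%, 41.5% and 43.7% of the Zfp probes, beside 38.7%, 39.0% and 40.7% of all probes. Higher were 7.04%, 7.04% and 3.52%, beside 12.5%, 12.5% and 9.26%. The treated arrays lay below all 4 controls for all 52 probes called lower at 24 h, and above them for 13 of the 15 called higher. The like share over all probes called is not given here, so these counts show nothing particular to the Zfp probes.

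**Figure D1:**
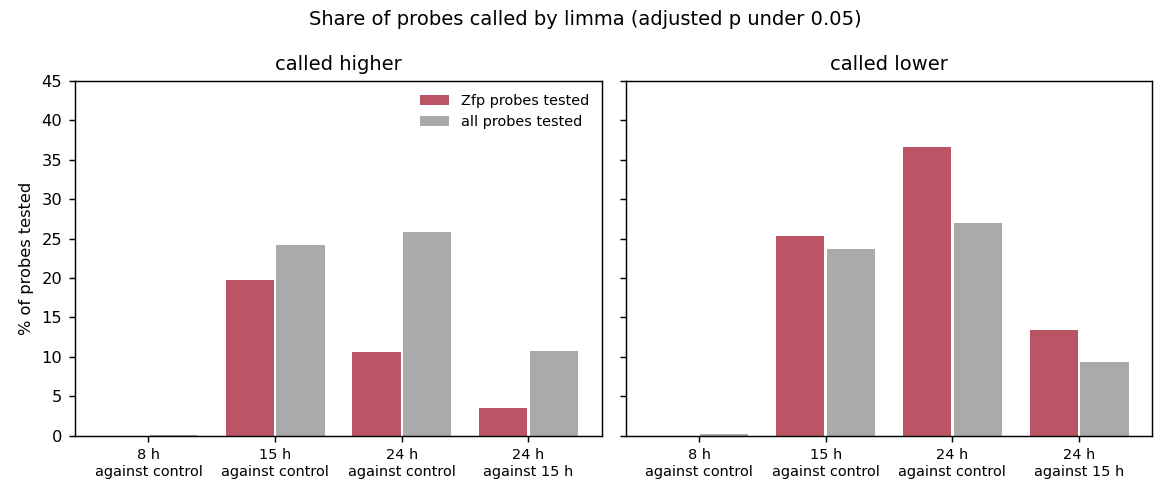
Percent of the probes tested that limma called higher (left) or lower (right) in each comparison, for the 142 Zfp probes and for all 14347 probes tested. At 24 h against control the Zfp bar is 10.6% for higher against 25.9% of all probes, and 36.6% for lower against 27.0%.

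The counts in both directions moved with how the arrays were scaled to each other: fewer probes were called higher and more were called lower under the 3 other scalings. The main values use quantile normalization, which gives every array the same distribution. Median scaling moved the median change of all probes to -0.14 at 15 h and -0.23 at 24 h, the authors' normalized values to -0.16 and -0.23, and no scaling to -0.23 and -0.37. At 24 h the split of higher and lower Zfp probes became 5 and 90 with median scaling, 8 and 84 with the authors' values, and 2 and 109 with no scaling. Lower were then 63.4%, 59.2% and 76.8% of the Zfp probes, beside 47.1%, 44.3% and 58.9% of all probes. Higher were 3.52%, 5.63% and 1.41%, beside 12.8%, 13.9% and 7.71%. At 15 h the split became 12 and 62, 10 and 63, and 5 and 73. Lower were then 43.7%, 44.4% and 51.4%, beside 39.4%, 38.5% and 45.6% of all probes. Higher were 8.45%, 7.04% and 3.52%, beside 12.3%, 12.2% and 7.12%. Relative to the median of all probes, the Zfp median at 24 h was -0.13 in the main values, -0.20 with median scaling, -0.18 with the authors' values and -0.20 with no scaling. At 15 h it was -0.05, -0.09, -0.08 and -0.09.

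All 52 falls called at 24 h were called under all 3 of these scalings too, and so were 35 of the 36 at 15 h. Of the 15 rises at 24 h only those of Zfp185 and Zfp36 were. Of the 28 rises at 15 h the 5 probes that kept their call were those of Zfp185, Zfp36, Zfp105 and both probes of Zfp36l1. Zfp105 is named here after its values were seen. Over all probes tested, 97.8% of the falls and 29.8% of the rises at 24 h kept their call in the same way.

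**Figure D2:**
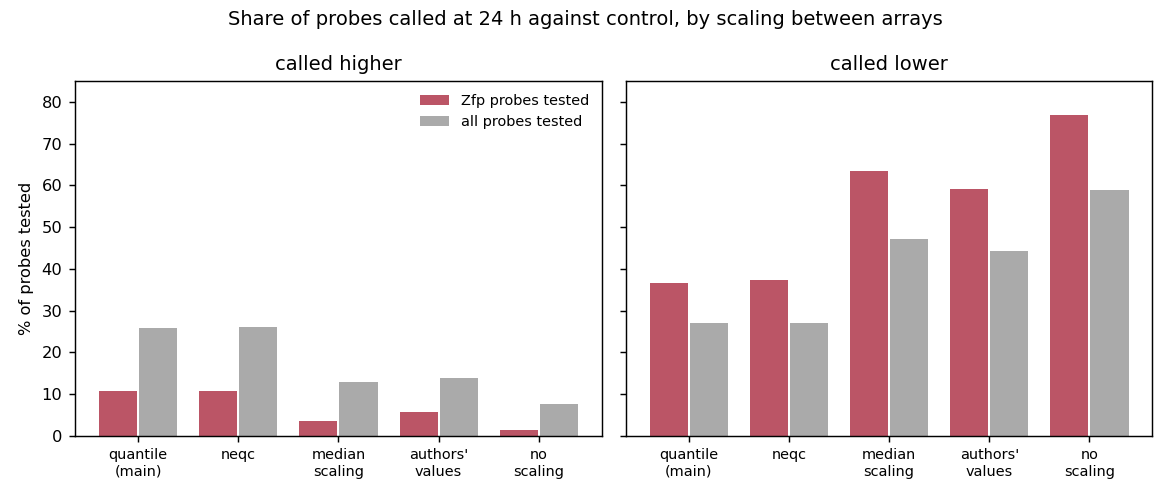
Percent of the probes tested that were called higher (left) or lower (right) at 24 h against control, under 5 ways of making the arrays comparable. The Zfp share called higher runs from 10.6% with quantile normalization to 1.41% with no scaling and is below that of all probes in each of the 5, while the share called lower runs from 36.6% to 76.8% and is above it in each.

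Among the RNA-binding members, Zfp36 and Zfp36l1 rose. Zfp36, or tristetraprolin, shortens the life of mRNAs with AU-rich elements, many of which encode inflammatory signals. Its log2 signal was 6.70, 6.62, 6.54 and 6.62 in the controls, 7.21, 6.55 and 7.39 at 8 h, 7.52, 7.46 and 7.41 at 15 h, and 8.08, 8.08 and 8.09 at 24 h. All arrays at 15 h and 24 h lay above every control, whereas at 8 h replicate 2 lay among the controls and the other arrays above them. The log2 change was 0.43 ± 0.14 (SE) at 8 h (limma adjusted p = 0.29), 0.84 ± 0.14 at 15 h (adjusted p = 0.00016) and 1.46 ± 0.14 at 24 h (adjusted p = 3.6e-07), the last a 2.76-fold rise. Without replicate 2 of the 8 h group its change at 8 h was 0.68, with an adjusted p of 0.0025 by limma. Between 15 h and 24 h Zfp36 rose by 0.62 ± 0.15 (limma adjusted p = 0.0094), a step that was 0.42 to 0.58 under the 3 other scalings and was called in none of them. With other scalings its change at 24 h was between 0.97 and 1.35.

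Zfp36l1 encodes a close relative of tristetraprolin with the same kind of CCCH fingers. Its brighter probe read 9.57, 9.41, 9.39 and 9.07 in the controls and 9.06, 8.39 and 8.89 at 8 h, where the groups did not overlap. At 15 h it read 11.05, 10.35 and 10.18, and at 24 h 10.10, 10.30 and 10.04, above all controls. Its log2 change was -0.58 ± 0.19 at 8 h (limma adjusted p = 0.28), 1.17 ± 0.19 at 15 h (adjusted p = 0.00011) and 0.79 ± 0.19 at 24 h (adjusted p = 0.0026). The rise at 24 h was lost under the 3 other scalings, at 0.11 with median scaling, 0.22 with the authors' values and -0.02 with no scaling. The dimmer probe of the gene changed by 0.47 ± 0.09 at 15 h (limma adjusted p = 0.00063) and 0.11 ± 0.09 at 24 h (adjusted p = 0.36), and its value at 15 h was 0.31 without replicate 1 of that group. Zfp36l2, the other paralog on the array, had changes of 0.06, 0.14 and 0.07 at 8 h, 15 h and 24 h and passed the test at none.

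The promoters of Zfp36 and Zfp36l1, the RNA decay factors that rose, are shown. Promoters were also drawn for Zfp185, Zfp537 (Tshz3), Zfp238 (Zbtb18) and Zfp326. None of these held a motif named below, so that the pair shown is the one with matches. Each promoter is the 250 bases before and 50 after the annotated start, from RefSeq on GRCm38.p6. The capitals mark a CArG box, the site read by serum response factor, in Zfp36 (chr7:28379179-28379478, minus strand). In Zfp36l1 (chr12:80112964-80113263, minus strand) they mark TGATTCA, a match to the pattern TGANTCA, where N is any base. That pattern is looser than the AP-1 consensus, which has C or G at N, so that this match is not an AP-1 consensus site.
Zfp36: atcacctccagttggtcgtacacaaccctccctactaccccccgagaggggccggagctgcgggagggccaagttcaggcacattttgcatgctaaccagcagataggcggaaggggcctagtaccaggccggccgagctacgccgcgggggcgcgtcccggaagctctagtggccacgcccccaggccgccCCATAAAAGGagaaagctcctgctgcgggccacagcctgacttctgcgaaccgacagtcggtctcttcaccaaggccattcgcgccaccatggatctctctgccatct
Zfp36l1: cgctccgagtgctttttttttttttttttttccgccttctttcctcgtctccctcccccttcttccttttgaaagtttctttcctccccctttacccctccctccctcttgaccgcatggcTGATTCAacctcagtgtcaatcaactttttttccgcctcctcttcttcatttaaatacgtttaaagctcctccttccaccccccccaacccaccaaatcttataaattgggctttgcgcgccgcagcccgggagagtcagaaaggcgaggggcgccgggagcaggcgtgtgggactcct
A CArG box on either strand was found in the promoters of 1.81% of the 27025 genes with a promoter in that table, and TGANTCA in 8.97%. A search of 97 tested Zfp genes with a promoter found the CArG box in that of Zfp36 alone. The other motifs searched were the cyclic AMP response element TGACGTCA (2.03% of all genes), the antioxidant response element TGACNNNGC (14.0%) and the CHOP-ATF4 element TGATGNAA (4.51%), and neither promoter shown has them. TGANTCA was in 2 of the 20 genes called higher at 15 h, in 1 of the 26 called lower and in 1 of the 59 not called. The 10.0% among those called higher is near the 8.97% of all genes. At 24 h it was in 1 of the 13 called higher, 0 of the 40 called lower and 4 of the 51 not called. A gene with several promoters or probes can stand in more than 1 of these counts, no other motif searched overlapped these matches, and a match describes the letters of this window only.

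Other RNA-binding members did not all move the same way. Zfp326 belongs, in human cells, to a complex that links RNA polymerase II to mRNA splicing. It read 8.30, 7.99, 8.59 and 8.34 in the controls, 8.63, 8.62 and 8.42 at 8 h, 7.31, 7.58 and 7.45 at 15 h, and 7.18, 7.26 and 7.02 at 24 h. The arrays at 15 h and 24 h lay below all controls. Its change was -0.86 ± 0.13 at 15 h (limma adjusted p = 4.7e-05) and -1.15 ± 0.13 at 24 h (adjusted p = 1.6e-06), a 2.22-fold fall. Zfp106, which binds RNA and is needed by motor neurons in mice, has a pair of tested probes. Both were called higher at 15 h, at 0.42 (limma adjusted p = 0.0025) and 0.44 (adjusted p = 0.0038). Both of these calls were lost under the 3 other scalings. One read 7.51 to 7.71 in the controls and 8.24, 8.40 and 8.43 at 24 h, a change of 0.76 ± 0.10 (limma adjusted p = 9.5e-06). The other changed by 0.06 ± 0.11 at 24 h (limma adjusted p = 0.66), so that the probes disagreed there, and the rise of 0.76 became 0.13 with no scaling. Of the 3 probes of Zfp346, which binds double-stranded RNA, 1 was called at 15 h at -0.29 ± 0.11 (limma adjusted p = 0.044), a call lost in 13 of the alternatives, 7 of which left out 1 array. None was called at 24 h, where 2 were called lower under the 3 other scalings. Of the 12 tested probes of RNA-binding members 5 were higher and 2 lower at 15 h, and 3 were higher and 1 lower at 24 h. The background over all probes tested was 24.2% higher and 23.7% lower at 15 h, and 25.9% and 27.0% at 24 h. The 3 of 12 higher at 24 h are thus near the background. The difference between these 12 probes and the rest was not tested.

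The largest rise against control of any Zfp probe belonged to a cytoskeletal protein. Zfp185 is a LIM-domain protein that associates with actin. Its log2 signal was 6.48, 6.38, 6.38 and 6.54 in the controls, 6.45, 6.24 and 6.34 at 8 h, 7.67, 7.67 and 7.57 at 15 h, and 8.03, 7.99 and 8.15 at 24 h. The 8 h arrays overlapped the controls and the later groups lay wholly above them. The change was 1.19 ± 0.09 at 15 h (limma adjusted p = 3.3e-08) and 1.61 ± 0.09 at 24 h (adjusted p = 4.7e-10), or 2.28-fold and 3.05-fold. At 24 h it was 1.29 with median scaling, 1.15 with no scaling and 1.57 with the authors' values. Its rise from 15 h to 24 h, of 0.42 ± 0.09 (limma adjusted p = 0.004), was called in none of the 3 other scalings, where it was 0.24 to 0.38.

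Of the 5 tested probes of ubiquitin ligases 2 rose and 1 fell at 15 h, and 0 rose and 2 fell at 24 h. Over all probes tested 24.2% rose and 23.7% fell at 15 h, and 25.9% and 27.0% at 24 h. The difference was not tested. Zfp313, now Rnf114, carries a RING finger. Its brighter probe read 8.34, 8.49, 8.41 and 8.64 in the controls, 9.93, 9.16 and 9.06 at 15 h, and 8.77, 8.74 and 8.90 at 24 h. The change at 15 h was 0.92 ± 0.16 (limma adjusted p = 0.00021) and that at 24 h 0.33 ± 0.16 (adjusted p = 0.094). With no scaling this probe was called lower at 24 h, at -0.39. Its other probe changed by 0.61 ± 0.13 at 15 h (limma adjusted p = 0.0015), and the brighter one was not called at 15 h with no scaling, at 0.38. Zfp179, now Rnf112, is a RING protein made mainly in brain. It read 8.19, 8.08, 8.31 and 8.22 in the controls, 7.81, 7.30 and 7.37 at 15 h, and 7.05, 7.26 and 7.11 at 24 h, all below the controls. The fall was -0.71 ± 0.13 at 15 h (limma adjusted p = 0.00035) and -1.06 ± 0.13 at 24 h (adjusted p = 4.9e-06).

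**Figure D3:**
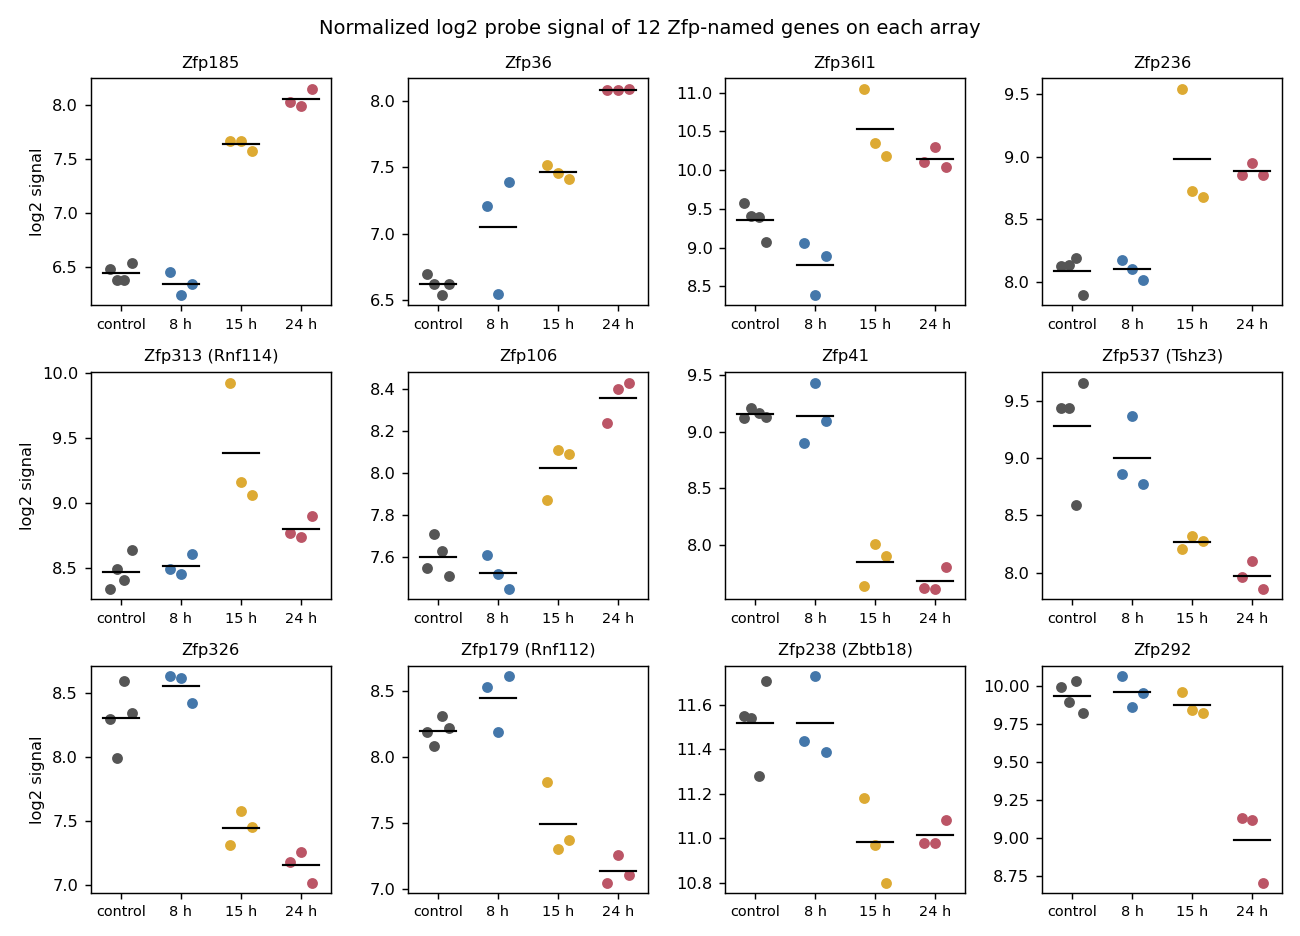
Normalized log2 signal (vertical axis, 1 scale per panel) of the brightest tested probe of 12 Zfp genes on each of the 13 arrays, by group, with points for arrays and lines for group means. Zfp185 and Zfp36 lie above all controls at 15 h and 24 h, Zfp41, Zfp537, Zfp326, Zfp179 and Zfp238 lie below them, and Zfp292 is below them at 24 h only; the rise of Zfp36l1, Zfp236 and Zfp106 at 24 h was not called with no scaling between arrays.

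Among transcription factors of cortical neurons, Zfp537 and Zfp238 fell. Zfp537, now Tshz3, is a teashirt-family factor needed by cortical projection neurons. It read 9.44, 9.44, 8.59 and 9.66 in the controls, 8.86, 9.37 and 8.77 at 8 h, 8.21, 8.32 and 8.28 at 15 h, and 7.96, 8.10 and 7.86 at 24 h. Control replicate 3 was the lowest control and still lay above every array at 15 h and 24 h. The fall was -1.01 ± 0.20 at 15 h (limma adjusted p = 0.00057) and -1.31 ± 0.20 at 24 h (adjusted p = 4.3e-05). Zfp238, now Zbtb18, is a repressor that newborn cortical neurons need to mature. Its brightest probe read 11.55, 11.54, 11.28 and 11.71 in the controls, 11.18, 10.97 and 10.80 at 15 h, and 10.98, 10.98 and 11.08 at 24 h. The changes were -0.54 ± 0.12 (limma adjusted p = 0.0013) and -0.51 ± 0.12 (adjusted p = 0.0017). Another probe of the gene fell by 0.59 and 0.70, with limma adjusted p of 0.0024 and 0.00048, and a dim probe had a change of -0.02 at 24 h and was not called.

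Zfp312, now Fezf2, specifies the deep-layer neurons that project out of the cortex. It read 9.80, 9.70, 10.54 and 9.99 in the controls, 10.77, 10.54 and 10.52 at 15 h, and 9.99, 9.85 and 9.74 at 24 h. The groups overlapped at both times, with a change of 0.60 ± 0.17 at 15 h (limma adjusted p = 0.0073) that was not called under the 3 other scalings. At 24 h it was not called in the main values and was called lower under those 3, at -0.72 to -0.94. It was lower at 24 h than at 15 h, at -0.75 ± 0.18 (limma adjusted p = 0.0072). Zfp521, a regulator of neural progenitors, read 8.38, 8.48, 8.52 and 8.37 in the controls and 7.88, 8.10 and 7.66 at 8 h, with no overlap. Its change at 8 h was -0.56 ± 0.12 (limma adjusted p = 0.058), and without replicate 2 of the 8 h group it was -0.67 (limma adjusted p = 0.012). At 15 h and 24 h its changes were 0.04 and 0.10, and they turned negative with other scalings, as far as -0.49 and -0.60.

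The genes with no listed role outside DNA binding make up most of the set. Of their 116 tested probes 19 rose and 29 fell at 15 h, and 10 rose and 46 fell at 24 h, with a median of -0.14 at 24 h. Among the 26 probes of genes with another role 5 rose and 6 fell at 24 h, with a median of 0.03. At 24 h 8.62% of the 116 probes were thus higher and 39.7% lower, and 19.2% and 23.1% of the 26. The background over all probes tested was 25.9% higher and 27.0% lower at 24 h, and 24.2% and 23.7% at 15 h. The split by role was made with the values known and was not tested. The largest fall was that of Zfp41, a C2H2 protein. It read 9.12, 9.21, 9.16 and 9.13 in the controls, 8.90, 9.43 and 9.09 at 8 h, 7.64, 8.01 and 7.91 at 15 h, and 7.63, 7.62 and 7.81 at 24 h. The change was -1.30 ± 0.13 at 15 h (limma adjusted p = 5.2e-07) and -1.47 ± 0.13 at 24 h (adjusted p = 6.9e-08), or 2.47-fold and 2.78-fold.

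Zfp39 fell by 1.04 ± 0.15 at 24 h, from 8.35 to 8.55 in the controls to 7.53, 7.34 and 7.33, with a limma adjusted p of 3e-05. Its arrays at 8 h were split, with 7.80 and 7.78 in replicates 1 and 3 and 8.58 in replicate 2, and without replicate 2 the change at 8 h was -0.65 (limma adjusted p = 0.0072). Zfp2 read 7.96 to 8.17 in the controls and 7.06, 7.06 and 7.12 at 24 h, a change of -0.95 ± 0.11. Zfp282 went from 10.22 to 10.43 in the controls to 9.37, 9.45 and 9.26, a change of -0.93 ± 0.11 at 24 h. Zfp99, now Zkscan14, fell by 0.67 at 15 h and by 0.93 at 24 h. All of these lay below every control at 24 h, with limma adjusted p between 2.2e-06 and 3e-05.

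Zfp277 gave opposite results by probe. One probe fell by 0.77 ± 0.10 at 15 h and by 0.89 ± 0.10 at 24 h, with limma adjusted p of 1.6e-05 and 2.2e-06. Another rose by 0.27 ± 0.09 at 15 h (limma adjusted p = 0.021) and changed by 0.09 at 24 h. It was the only one of the 23 symbols with several tested probes whose probes were called in opposite directions at 15 h.

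Some members moved between 15 h and 24 h. Of the 142 probes 5 rose and 19 fell over that step, and 16.9% were called against 20.1% of all probes. Called higher were 3.52% against 10.8%, and called lower 13.4% against 9.31%. With median scaling the split was 0 and 25, with the authors' values 0 and 27, and with no scaling 0 and 23. Lower were then 17.6%, 19.0% and 16.2% of the Zfp probes, beside 9.4%, 8.59% and 10.0% of all probes. Over all probes 4.76%, 5.47% and 3.32% were higher. Zfp292, a large C2H2 protein, passed the test with neither probe at 15 h (limma adjusted p = 0.69 and 0.076) and fell with both at 24 h. Under the 3 other scalings 1 of them was already called lower at 15 h, at -0.55 to -0.65. The brighter read 9.99, 9.89, 10.03 and 9.82 in the controls, 9.96, 9.84 and 9.82 at 15 h, and 9.13, 9.12 and 8.71 at 24 h, so that the 24 h arrays lay apart from all others. Its change over the step was -0.89 ± 0.12 (limma adjusted p = 8.4e-05), and that of the other probe -0.83 ± 0.14 (adjusted p = 0.00051).

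Zfp148, which binds GC-rich promoters, read 9.72 to 9.92 in the controls, 9.87, 9.44 and 9.49 at 15 h and 9.25, 9.20 and 8.90 at 24 h. It changed by -0.22 at 15 h (limma adjusted p = 0.15), where it was called lower at -0.70 to -0.80 under the 3 other scalings, and by -0.70 ± 0.12 at 24 h (adjusted p = 0.00015). Its relative Zfp281 was called lower at 15 h (-0.41 ± 0.11, limma adjusted p = 0.0065) and at 24 h (-0.31 ± 0.11, adjusted p = 0.028), the latter lost in 6 alternatives, 3 of which left out 1 array. Zfp143, an activator at many housekeeping promoters, changed by 0.46 ± 0.13 at 15 h (limma adjusted p = 0.0085), a call lost under the 3 other scalings, and by 0.10 at 24 h.

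Zfp191, now Zfp24, is a SCAN-domain factor that oligodendrocytes need to make myelin. It read 7.51, 7.41, 7.95 and 7.83 in the controls, 7.99, 8.13 and 8.21 at 15 h, and 7.21, 7.29 and 6.99 at 24 h. The 15 h arrays lay above and the 24 h arrays below all controls, and the step was -0.95 ± 0.14 (limma adjusted p = 0.00015). Its rise at 15 h (0.43 ± 0.13, limma adjusted p = 0.011) was lost under the 3 other scalings, while its fall at 24 h (-0.51 ± 0.13, adjusted p = 0.0031) was kept under them. Zfp358 took a like course, at 0.53 ± 0.14 at 15 h (limma adjusted p = 0.0048) and -0.33 ± 0.14 at 24 h (adjusted p = 0.052, called lower under the 3 other scalings), with a step of -0.86 ± 0.15 (adjusted p = 0.00059).

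A few falls at 15 h were smaller at 24 h. Zfp57, a KRAB protein that keeps the methylation of imprinted genes, read 7.66, 7.65, 8.14 and 7.48 in the controls, 7.16, 7.23 and 7.23 at 15 h, and 7.85, 7.77 and 7.70 at 24 h. The 15 h arrays were below all controls (-0.52 ± 0.15, limma adjusted p = 0.01), and the 24 h arrays were among them. Its rise over the step was 0.56 ± 0.16 (limma adjusted p = 0.024). Zfp180 read 9.48 to 9.76 in the controls, 8.58, 8.88 and 8.94 at 15 h, and 9.34, 9.31 and 9.30 at 24 h. It changed by -0.84 ± 0.12 at 15 h (limma adjusted p = 3.8e-05) and by -0.32 at 24 h (adjusted p = 0.04). The latter call was lost in 11 alternatives, 6 of which left out 1 array. Over the step Zfp180 rose by 0.52 ± 0.13 (limma adjusted p = 0.011). Neither of these rises over the step was called under any of the 3 other scalings.

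Replicate 1 of the 15 h group read higher than its fellows for several of the probes that rose at 15 h. The brighter probe of Zfp236, a C2H2 protein, read 7.90 to 8.19 in the controls, 9.54, 8.73 and 8.68 at 15 h, and 8.85, 8.95 and 8.85 at 24 h. Its changes were 0.89 ± 0.16 (limma adjusted p = 0.00029) and 0.80 ± 0.16 (adjusted p = 0.00063), the latter 0.08 with no scaling. Its other probe rose by 0.60 ± 0.10 and 0.72 ± 0.10. Without replicate 1 the rise at 15 h went from 0.77 to 0.48 for Zfp68, from 0.67 to 0.37 for Zfp1, from 0.65 to 0.33 for Zfp295 and from 0.53 to 0.33 for Zfp358, and each was still called by limma. None of these 4 was called at 15 h with no scaling, and with median scaling Zfp68, Zfp1 and Zfp358 were not. Zfp219 was called at 24 h alone, at 0.65 ± 0.17 (limma adjusted p = 0.0052), and its change was -0.12 with no scaling.

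**Figure D4:**
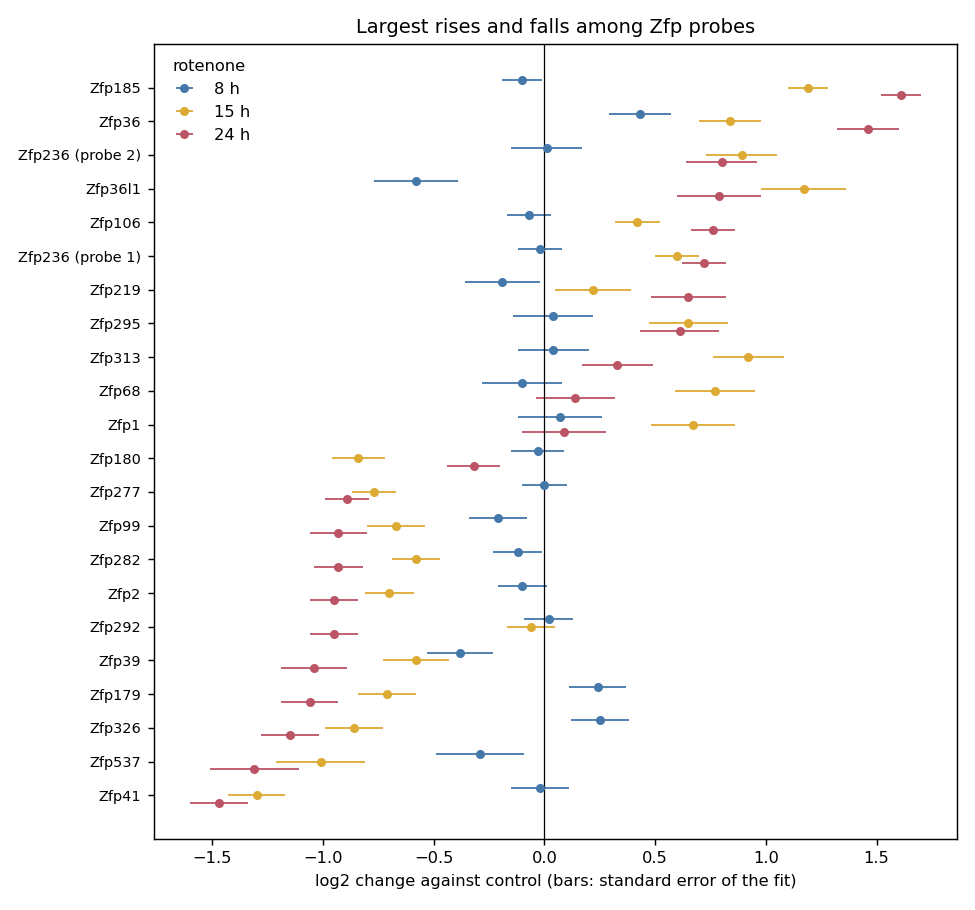
Log2 change against control (horizontal axis) of the Zfp probes with the largest rises and falls at 15 h or 24 h, with points for 8 h, 15 h and 24 h and bars for the standard error of the limma fit. Zfp185 reaches 1.61 and Zfp41 -1.47 at 24 h, while the 8 h values lie between -0.58 and 0.43; among the rises at 24 h, only Zfp185 and Zfp36 were also called under the 3 other scalings, and the change of Zfp36l1 and Zfp219 turned negative with no scaling.

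By course, 29 Zfp probes (20.4%) were lower at both 15 h and 24 h, beside 19.1% of all probes, and 12 (8.45%) were higher at both, beside 16.9%. A further 22 (15.5%, beside 7.55%) were called lower at 24 h alone and 15 (10.6%, beside 6.95%) higher at 15 h alone. 7 were lower at 15 h alone, 3 higher at 24 h alone, 1 higher and then lower (Zfp191), and 53 were called at neither time. Zfp161, Zfp318, Zfp365, Zfp423, Zfp64 and Zfp36l2 passed the test at no time against control in the main values. Under all 3 other scalings Zfp318 (-0.56 to -0.77) and 1 probe each of Zfp161 and Zfp64 were called lower at 24 h. Zfp207, a protein of the mitotic spindle, was called lower at 15 h (-0.44 ± 0.12, limma adjusted p = 0.0075) and 24 h (-0.35 ± 0.12, adjusted p = 0.022), the latter lost in 7 alternatives, 4 of which left out 1 array. Zfp369 was called higher at 15 h only (0.34, limma adjusted p = 0.0015), a call lost with no scaling.

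Zfp genes of mouse chromosome 7, which carries several clusters of such genes, fell in larger part. Of their 24 tested probes 3 rose and 8 fell at 15 h, and 1 rose and 14 fell at 24 h, with a median of -0.32 at 24 h. The single rise was that of Zfp36. Among the falls were Zfp537, Zfp180 (-0.32, a call lost in several alternatives), Zfp98 (-0.75) and Zfp94 (-0.61), the last pair named after their values were seen. Of the 118 Zfp probes elsewhere 11.9% rose and 32.2% fell at 24 h, with a median of -0.10. Of the 1076 other probes tested on chromosome 7 27.0% rose and 25.1% fell, with a median of 0.02. The differences between these sets were not tested.

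The partners of these proteins were described from lists of genes, read against 24.2% of all probes called higher and 23.7% lower at 15 h, and 25.9% and 27.0% at 24 h. Of 36 tested probes for Trim28, its associated silencing enzymes and other chromatin corepressors, 5 rose and 8 fell at 15 h, and 4 rose and 12 fell at 24 h, with a median of -0.12. Trim28 itself, the KRAB corepressor, fell by 0.53 ± 0.17 at 24 h (limma adjusted p = 0.015), and the lowest value was that of a probe of the histone methyltransferase Ehmt1, at -1.35 ± 0.11. Its other 3 probes changed by -0.50, -0.34 and -0.10, the last not called. Of 30 probes for CCR4-NOT and mRNA decay 7 rose and 5 fell at 15 h, and 7 rose and 8 fell at 24 h, with a median of -0.04. The largest rise at 24 h was that of Tob1, which binds the deadenylase, at 0.71 ± 0.11 (limma adjusted p = 5.6e-05).

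Other zinc finger families were counted at 24 h by symbol prefix alone, against the same background of 25.9% higher and 27.0% lower. Probes with a Zfp symbol on the array were left out of these counts, also where the current symbol belongs to one of these families. Of 19 other probes with a Zbtb symbol none rose and 6 fell, with a median of -0.07. Of the 10 tested Zfp probes whose current symbol is Zbtb, 2 rose and 3 fell. Of 16 Klf probes 7 rose and 3 fell. Of 12 Zc3h probes 2 rose and 2 fell, of 17 Zcchc probes 2 rose and 7 fell, and of 19 Zdhhc probes 2 rose and 9 fell. The Zscan and Zkscan symbols had 2 tested probes each, with 1 fall and 1 rise. Of the 6 tested Zfp probes now named Zscan or Zkscan, 0 rose and 2 fell.

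The arrays lie on 2 slides, each with all 4 groups. Detection was read from a profile whose matching array carried another label of the same group for all 13 samples, so that slides were taken both from the labels and from that match. Within slide 1 of the labels the median log2 change of the Zfp probes was -0.02 at 15 h and -0.11 at 24 h. Over all probes tested it was 0.02 and 0.00 there. Within slide 2 of the labels the Zfp median was -0.07 and -0.14, beside 0.01 and 0.00. Within matched slide 1 it was -0.07 and -0.18, beside 0.01 and 0.00. Within matched slide 2 it was 0.00 and -0.13, beside 0.02 and 0.00. With the slide as a block, 60 to 62 Zfp probes were called at 15 h and 65 to 70 at 24 h. Over all 14347 probes tested these counts were 6691 to 7128 and 7475 to 7667.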

How the data were processed

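RNA from 13 samples was hybridised to Illumina MouseRef-8 bead arrays, as biotin-labelled cRNA, per the labels' protocols. The deposited probe table holds the bead signal intensity per probe, not scaled between arrays. The deposited gene profile was made with BeadStudio 3.2.6 without normalization and holds, per the file headers, a detection score as a fraction, where 1 is certain detection. The ratio in the authors' normalized table was found by recomputing it to be each signal divided by its array's median and by the median of the controls (largest relative difference 3.75e-07). The profile array of each sample was found by identical signals (tolerance 0.05, at least 98.6% of 13248 genes), and 102 other per-array columns were not used.

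Signals were corrected by normexp (offset 50), quantile normalized and put on the log2 scale. Probes with a detection p under 0.05 on at least 3 arrays were kept (14347 of 24613, of 24923 listed). limma 3.58.1 in R 4.3.3 fitted the 4 groups together with a variance trend (9 residual degrees of freedom), and p-values were adjusted over all probes kept. Values are per probe; SE is that of the fit, and the number of arrays limits the precision. The procedure was tested on simulated data. The deposited probe identifiers were out of step with the gene descriptions. For instance, a probe described as Dcx carried an immunoglobulin identifier. Probes were therefore named by the symbol and accession of their description alone. By that naming all 224 Zfp probes matched a RefSeq gene (GRCm38.p6). For genes with several probes, the naming was not tested probe by probe. Protein features were not analysed here.

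Members, gene lists and roles were chosen with earlier results of these data known. Named genes are the 8 largest rises and falls called at each time against control, and the 5 largest between times, whose groups do not overlap, with a set of well-studied genes; all tested probes of a gene count. Alternatives changed the background correction, scaling, detection filter, probe choice, slide, replicate block, array weights and each array in turn.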

Additional observations from a re-analysis of the deposited data

Results flagged for a closer look

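In the controls, Zfp2 read 8.17 on its highest array and 7.96 to 7.99 on the others, a gap that Dixon's test flags. Zfp318 read 9.44 on its highest control array and 8.85 to 8.91 on the others. These are 2 of the 50 named probes checked, and chance flags about 1 in 20. Zfp191 was called higher at 15 h and lower at 24 h against control, and its change from 15 h to 24 h was -0.95 (limma adjusted p = 0.00015).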

How the results depend on the processing

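Scaling with neqc, no background correction, other detection filters, the brightest probe per gene, slide blocks and fits of 2 groups kept each count of called Zfp probes within 1.5 times of the main one. With no scaling 111 were called at 24 h. Within slide 1 of the labels alone 36 were called at 15 h, 20 at 24 h, 34 for 15 h against 8 h and 0 for 24 h against 15 h. Within slide 2 these were 21 at 15 h, 19 for 15 h against 8 h and 3 for 24 h against 15 h. Within matched slide 1 they were 32 at 15 h, 38 at 24 h and 3 for 24 h against 15 h, and within matched slide 2 21 at 8 h and 77 for 24 h against 15 h. These subsets hold fewer arrays, some with 1 array in a group, assumed to vary like the others. The count over all probes moved the same way as the Zfp count in each case given. Array weights gave 35 at 8 h and 60 for 24 h against 15 h, beside 3041 and 5830 of all 14347 probes. Leaving out each replicate in turn gave 0 to 3 at 8 h (3 without replicate 2 of that group), 56 to 69 at 15 h, 61 to 75 at 24 h, 49 to 60 for 15 h against 8 h and 15 to 31 for 24 h against 15 h (15 without replicate 2 of the 24 h group, a change of over 1.5 times).

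Whether the replicate numbers pair the samples was not settled by the correlations between arrays. Of 18 same-number correlations 6 were over 0.1 (-0.113 to 0.192), as were 7 of 45 others (-0.226 to 0.21). Of 13 arrays 6 correlated best with their own number. With the replicate block 0, 60, 65, 58 and 26 probes were called at 8 h, 15 h, 24 h, 15 h against 8 h and 24 h against 15 h.

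Signs turned, with a call in the main or the other fit, as follows. With median scaling Zfp521 was at -0.40 at 15 h and -0.47 at 24 h, Zfp68 at -0.42, Zfp1 at -0.46 and Zfp106 at -0.30 at 24 h, and Zfp148 at -0.50 for 15 h against 8 h. With no scaling Zfp106 and Zfp191 were at -0.03, Zfp358 at -0.04 and Zfp521 at -0.49 at 15 h. At 24 h, with no scaling, Zfp521 was at -0.60, Zfp36l1 at -0.02, Zfp313 at -0.39, Zfp68 at -0.56, Zfp1 at -0.59, Zfp219 at -0.12, Zfp57 at -0.56, Zfp106 at -0.44 and Zfp143 at -0.45. For 15 h against 8 h Zfp148 was then at -0.55 and Zfp312 at -0.01. The authors' values put Zfp521 at -0.40 and -0.41 at 15 h and 24 h, Zfp1 at -0.40 at 24 h and Zfp148 at -0.52 for 15 h against 8 h. Within matched slide 2 Zfp219 was at -0.44 and Zfp346 at 0.58 at 15 h, Zfp346 at 0.80 for 15 h against 8 h and Zfp238 at -0.20 for 24 h against 15 h. Array weights gave 0.26 for Zfp64 (15 h against 8 h) and 0.31 for Zfp295 (24 h against 15 h). Of the other values of named probes under an alternative, 6892 kept their side of the threshold (252 of them with the other sign and a call in neither fit), 312 lost the call and 200 gained one; the cause was not tested.

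Probes near background have little room to fall, so that their changes are understated on this scale.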

Other observations

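Zfp352 was detected on no control array and on all 3 arrays at 24 h. In the main values it was at least 1.12-fold higher there, though with no scaling it was not called, at 0.08 on the log2 scale. Zfp526 was detected on 3 control arrays and on none at 24 h, at least 1.05-fold lower in the main values. Each could pass the detection filter through the group where it is higher, so that no p-value is given. Both were chosen after their values were seen.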
